A study of Rattus norvegicus with 8 samples.

Results

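The CXC chemokines that draw neutrophils and T cells into tissue were followed in the skin of streptozotocin-treated and sham-treated rats. The set held 9 genes in 3 classes: Cxcl1, Cxcl2, Cxcl3 and Cxcl6 for neutrophils, Cxcl9, Cxcl10 and Cxcl11 as the interferon-induced class, and Cxcl12 and Cxcl14 as homeostatic chemokines. Members were the probes whose RefSeq accession, with the version dropped, belongs to one of these rat genes. This gave 10 of the 24684 noncontrol probes, for 8 of the 9 genes. No probe's accession was paired with Cxcl3, so Cxcl3 was not analysed here. All 10 probes passed the filter on dim signal, as 21527 probes did, and each was well above background in all 8 samples.

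The STZ group comprised male Sprague-Dawley rats injected intraperitoneally at 4 weeks of age with 60 mg/kg streptozotocin, a toxin of insulin-producing beta cells used to induce diabetes. The sham group comprised male rats of the same strain and age given sodium citrate solution. Full-thickness skin, which contains epidermis, dermis, hair follicles and fat, was taken 4 weeks later, at 8 weeks of age, and its total RNA was measured on 1-colour Agilent arrays. The labels also mention a cutaneous wound, and do not make clear whether the profiled skin had been wounded. They list 4 samples a group, but replicates 1 and 3, and replicates 2 and 4, of each group were readings of 1 array. Spot-level deviations correlated at 0.986 to 0.995 within these 4 pairs and at no more than 0.754 in the other pairs. The readings were averaged, so 2 STZ arrays were set against 2 sham arrays. All 4 arrays lay on 1 slide, STZ at positions 1 and 2 and sham at positions 3 and 4, so the effects of position and group cannot be told apart. The labels do not say how many rats contributed RNA to an array, and p-values measure only the spread between these arrays. The 75th percentile of intensity was 1481 and 1496 in the readings of STZ array 1 (replicates 1 and 3). It was 606 and 624 in those of STZ array 2 (replicates 2 and 4), the dimmest array, and 1138 to 1336 in the sham samples. In each sample, 20266 to 22888 probes were well above background. Krt14 and Krt1, keratins that mark the epidermis, lay above the 75th percentile on all 4 arrays.

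CXC chemokines are small secreted proteins that guide leukocytes through G protein-coupled receptors. The neutrophil class carries the motif glutamate-leucine-arginine before its paired cysteines and acts through Cxcr2. It is made by keratinocytes, fibroblasts and myeloid cells after interleukin-1, tumour necrosis factor or interleukin-17 activates NF-kappaB. Cxcl9, Cxcl10 and Cxcl11 are induced by interferons and attract activated T cells and NK cells through Cxcr3. Cxcl12 and Cxcl14 are made constitutively in skin: Cxcl12 acts on Cxcr4 and the scavenging receptor Ackr3, and Cxcl14 is an epithelial chemokine.

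The windows of 250 bases before the start of 6 inducible members are shown because the letters of an NF-kappaB motif lie in each of them. The letters of a motif of interferon signalling lie only in those of Cxcl10 and Cxcl11. They are RefSeq sequences of the rat assembly GRCr8, written 5′ to 3′ on the strand of the gene. Capitals mark matches, on either strand, to NF-kappaB (GGGANNNCCC, GGGANNNTCC, GGGGNNNCCC or GGGGNNNTCC), to the interferon-stimulated response element ISRE (GAAANNGAAA) or to the gamma-activated site GAS (TTCNNNGAA).
Cxcl1, chr14:17479322-17479571, minus strand: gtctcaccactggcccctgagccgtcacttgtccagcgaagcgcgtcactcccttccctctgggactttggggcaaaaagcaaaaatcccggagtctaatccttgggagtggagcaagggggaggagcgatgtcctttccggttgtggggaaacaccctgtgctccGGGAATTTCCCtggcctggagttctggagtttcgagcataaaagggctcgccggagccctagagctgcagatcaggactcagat
Cxcl2, chr14:17467256-17467505, minus strand: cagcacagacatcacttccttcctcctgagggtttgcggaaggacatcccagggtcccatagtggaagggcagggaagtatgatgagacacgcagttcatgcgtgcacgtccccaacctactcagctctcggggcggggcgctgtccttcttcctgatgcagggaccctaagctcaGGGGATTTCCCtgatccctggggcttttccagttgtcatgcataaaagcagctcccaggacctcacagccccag
Cxcl6, chr14:17596418-17596667, minus strand: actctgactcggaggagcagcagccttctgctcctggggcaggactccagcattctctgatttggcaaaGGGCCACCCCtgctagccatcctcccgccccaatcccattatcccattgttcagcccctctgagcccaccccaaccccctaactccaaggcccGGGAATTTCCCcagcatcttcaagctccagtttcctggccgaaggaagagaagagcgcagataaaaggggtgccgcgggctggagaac
Cxcl9, chr14:16006916-16007165, plus strand: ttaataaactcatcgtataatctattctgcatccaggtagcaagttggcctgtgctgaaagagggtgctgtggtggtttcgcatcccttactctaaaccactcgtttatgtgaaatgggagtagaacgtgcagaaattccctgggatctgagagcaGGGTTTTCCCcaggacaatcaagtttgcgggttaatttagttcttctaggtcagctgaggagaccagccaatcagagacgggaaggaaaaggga
Cxcl10, chr14:15988816-15989065, plus strand: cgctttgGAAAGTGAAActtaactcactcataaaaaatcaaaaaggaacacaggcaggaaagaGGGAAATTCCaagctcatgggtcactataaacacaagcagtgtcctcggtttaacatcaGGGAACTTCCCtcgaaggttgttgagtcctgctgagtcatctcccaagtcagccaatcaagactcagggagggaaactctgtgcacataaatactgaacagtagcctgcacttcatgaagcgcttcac
Cxcl11, chr14:15973478-15973727, plus strand: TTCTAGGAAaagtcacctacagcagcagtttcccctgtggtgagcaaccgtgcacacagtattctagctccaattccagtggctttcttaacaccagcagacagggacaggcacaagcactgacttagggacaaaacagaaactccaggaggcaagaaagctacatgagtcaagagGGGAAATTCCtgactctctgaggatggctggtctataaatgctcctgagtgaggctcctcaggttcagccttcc

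An NF-kappaB match stood in the windows of 3 of 3 neutrophil chemokines and of 3 of 3 interferon-induced chemokines, and of 0 of 2 homeostatic ones. Of 33469 rat promoter windows of the same length, 13.0% held one. Cxcl1 and Cxcl6 carried the same letters, GGGAATTTCCC, at 84 to 74 and at 88 to 78 bases before the start. The match of Cxcl2, GGGGATTTCCC, stood at 74 to 64 bases. Cxcl6 held a further match at 181 to 172 bases. Among the interferon-induced genes, Cxcl9 had its NF-kappaB match at 94 to 85 bases and Cxcl11 at 74 to 65 bases, while Cxcl10 had a pair, at 187 to 178 and at 128 to 118 bases. The ISRE letters occurred in Cxcl10 alone, at 243 to 234 bases, and in 3.41% of all windows. The GAS letters occurred in Cxcl11 alone, at 250 to 242 bases, and in 7.67% of all windows. Matches to different motifs did not overlap. The windows of Cxcl12 (chr4:152060531-152060780, plus strand) and Cxcl14 (chr17:8322900-8323149, plus strand) held no match to any of the motifs. These matches are of letters only, and no binding was measured.

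**Figure D1:**
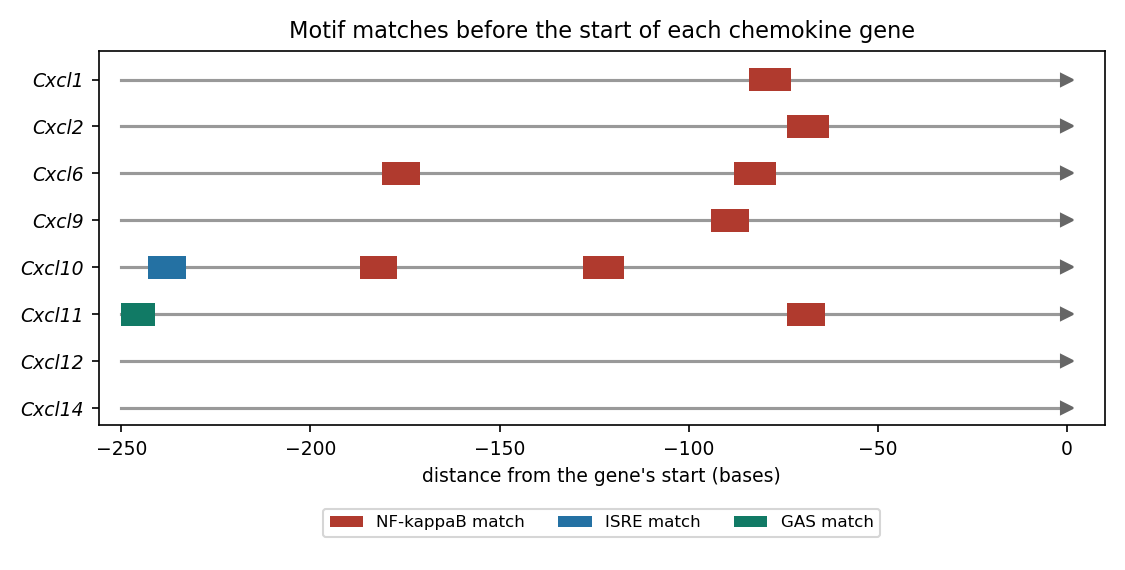
Position of motif matches in the 250 bases before the start of 8 chemokine genes; the horizontal axis is the distance from the gene's start in bases, and each block spans 1 stretch of matched letters. NF-kappaB matches lie in the 6 neutrophil and interferon-induced genes, 1 ISRE match lies in Cxcl10 and 1 GAS match lies in Cxcl11, while Cxcl12 and Cxcl14 have none.

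Levels below are log2 intensities relative to the array's 75th percentile, so a positive level lies above that percentile. They compare 1 probe between arrays, and say nothing of the amounts of different genes. Changes are STZ minus sham in log2, relative to the change of the median probe, which was 0.23 on the 75th percentile scale. SEs and p-values come from limma's moderated test on that scale. The p-values thus test the difference before 0.23 was subtracted, not the printed change, which favours calls of higher over calls of lower. Intervals are those of the printed change, so one can include 0 at an unadjusted p under 0.05. The p-values were adjusted by the Benjamini-Hochberg method over 21527 probes. None of these probes passed an adjusted p of 0.05 (0%), the smallest being 0.0758, so no chemokine below passed it, and "higher" and "lower" are used here for measured differences. At an unadjusted p under 0.05, 5 of the 8 measured chemokines were higher in STZ skin, against 7.30% of all probes, and 0 were lower, against 3.52%. Both STZ arrays lay above both sham arrays for 5 chemokines, against 26.8% of probes, and below them for 1, against 17.9%. The median change of the 8 genes was 3.52; over all probes the quartiles were -0.51 and 0.66 around a median of 0, and 15.5% of probes exceeded 1.

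**Figure D2:**
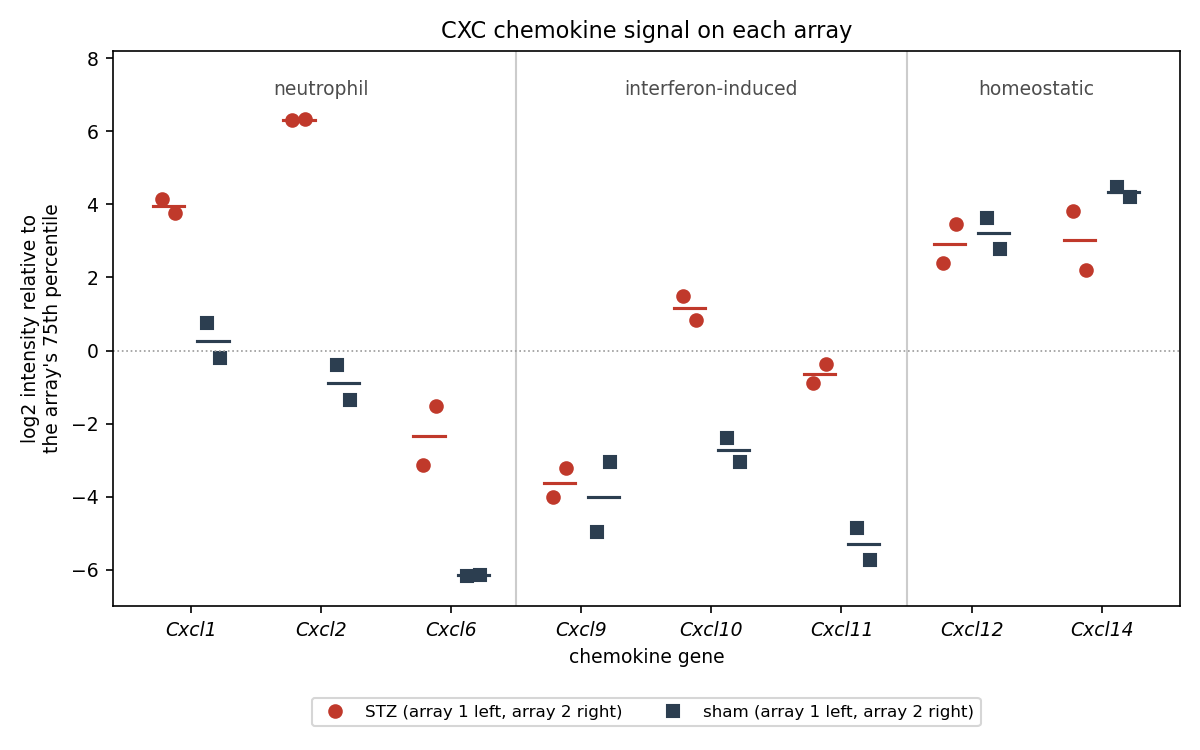
Level of each measured CXC chemokine (1 probe a gene) on the 2 STZ arrays (circles) and the 2 sham arrays (squares), as log2 intensity relative to the array's 75th percentile; lines are group means (n = 2 arrays each), and levels are comparable within a gene only. STZ and sham arrays lie apart for Cxcl1, Cxcl2, Cxcl6, Cxcl10 and Cxcl11, with STZ higher, and for Cxcl14, with STZ lower, and they overlap for Cxcl9 and Cxcl12.

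All 3 measured neutrophil chemokines were higher in STZ skin, with a mean change of 4.67, or 25.5-fold (median 3.59, range 3.45 to 6.97). Cxcl2 raised that mean, and the median lay near the median of 3.64 of the interferon-induced class. The class mean was 2.43 and 2.85 on the STZ arrays, against -1.94 and -2.57 on the sham arrays, and the replicate SD of this mean was 0.37. In this full-thickness skin, more cells that make a chemokine and more RNA per cell cannot be told apart.

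Cxcl2, a strong neutrophil attractant also known as macrophage inflammatory protein 2, had the largest change of the members. Its level was 6.29 and 6.32 on the STZ arrays, against -0.41 and -1.36 on the sham arrays. The STZ arrays differed by little from each other and stood far above both sham arrays. In processed intensity this was 116900 and 49160 in STZ skin and 871 and 512 in sham skin. The change was 6.97 ± 0.51 (SE, 2 arrays each; 95% interval 5.65 to 8.28), a 125-fold difference, with an unadjusted p of 3.24e-05 and an adjusted p of 0.0873. When each array was centred on its own median probe in place of the 75th percentile, Cxcl2 passed the adjusted test (adjusted p = 0.0212), as 125 probes did; over all alternatives with rescans averaged its adjusted p ran from 0.0212 to 0.792.

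Cxcl1, the keratinocyte-derived chemokine that activates Cxcr2, had levels of 4.15 and 3.76 on the STZ arrays, against 0.74 and -0.20 on the sham arrays. The groups did not overlap, and the lower STZ array was still well above the higher sham array. The change was 3.45 ± 0.52 (interval 2.11 to 4.80), or 10.96-fold, with an adjusted p of 0.136. Leaving out any 1 array kept it between 2.96 and 3.95.

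Cxcl6, another Cxcr2 ligand, was read by a dim probe, with a processed intensity of 169 and 213 in STZ skin, against 16.3 and 18.8 in sham skin. Its level was -3.14 and -1.53 on the STZ arrays, against -6.16 and -6.13 on the sham arrays. The sham arrays nearly coincided, and the STZ arrays lay apart from each other but above both of them. The change was 3.59 ± 0.66 (interval 1.90 to 5.27), or 12.02-fold, with an adjusted p of 0.164. With normexp background correction and quantile normalization it was 1.70, and rescans of 1 array differed by up to 0.49 at this probe, against at most 0.12 at the probes of the other members.

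Within the interferon-induced class, Cxcl10 and Cxcl11 were higher in STZ skin and Cxcl9 was not distinguishable between the groups. The class mean change was 2.75 (median 3.64, range 0.16 to 4.43), with class means of -1.14 and -0.92 on the STZ arrays and -4.06 and -3.94 on the sham arrays. The replicate SD of the class mean was 0.13, but differences between arrays partly cancelled in that mean. From sham array 1 to sham array 2, Cxcl9 rose while Cxcl10 and Cxcl11 fell. Their own SDs between the sham arrays were 1.35, 0.46 and 0.63.

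Cxcl11, the Cxcr3 ligand of highest affinity, had levels of -0.90 and -0.37 on the STZ arrays, against -4.85 and -5.74 on the sham arrays. Both STZ arrays stood clear of both sham arrays. The change was 4.43 ± 0.53 (interval 3.08 to 5.79), or 21.6-fold, with an adjusted p of 0.102; it was 2.77 under normexp with quantile normalization, and passed the adjusted test with median-centred arrays (adjusted p = 0.0405, range over alternatives with rescans averaged 0.0405 to 0.839).

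Cxcl10, also called interferon gamma-induced protein 10, had levels of 1.49 and 0.83 in STZ skin, against -2.38 and -3.04 in sham skin. The spread within each group was small beside the gap between them. The change was 3.64 ± 0.51 (interval 2.34 to 4.94), or 12.5-fold, with an adjusted p of 0.12, and leaving out any 1 array kept it between 3.16 and 4.17.

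Cxcl9, the monokine induced by interferon gamma, had levels of -4.01 and -3.22 on the STZ arrays, against -4.96 and -3.05 on the sham arrays. Its probe was dim, with processed intensities of 92 and 66 in STZ skin, against 37 and 159 in sham skin. The groups overlapped, both STZ values lying between the sham values. The change was 0.16 ± 0.77, with an interval of -1.82 to 2.15 and an adjusted p of 0.86, so this number of arrays left both directions within the interval. Without sham array 1 the change was -0.76, and without sham array 2 it was 1.09.

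The homeostatic chemokines were not higher as a class: their mean change was -1.03, with class means of 3.10 and 2.84 on the STZ arrays and 4.05 and 3.49 on the sham arrays (replicate SD 0.31). Between the STZ arrays Cxcl14 and Cxcl12 moved in opposite directions, with SDs of 1.13 and 0.75, which partly cancelled in the mean. The differences between the 3 classes were not tested.

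Cxcl14, which epidermal keratinocytes make in healthy skin, had levels of 3.81 and 2.21 on the STZ arrays, against 4.46 and 4.21 on the sham arrays. Both STZ arrays lay below both sham arrays, and the second STZ array was the farther of them. The change was -1.55 ± 0.66 (interval -3.24 to 0.14), a 2.93-fold lower level, with an unadjusted p of 0.101 and an adjusted p of 0.556. It rested largely on STZ array 2: it was -0.55 without that array and -2.51 without STZ array 1. Keratins of hair shafts and inner root sheaths were lower on the same arrays, 5 of the 5 tested (of 6 listed). Each of these keratins was lower at an unadjusted p under 0.05, against 3.52% of all probes. Their mean level was -0.09 and -3.38 on the STZ arrays, against 5.28 and 5.23 on the sham arrays, again lowest on STZ array 2. Their part in the result was not tested.

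Cxcl12, the ligand of Cxcr4 made by fibroblasts and endothelium, was measured by 3 probes that disagreed in sign. The one with the highest mean level, for NM_001033883 (3.064, against 3.060 for NM_022177), read 2.39 and 3.46 on the STZ arrays, against 3.64 and 2.77 on the sham arrays, a change of -0.50 ± 0.60 (interval -2.04 to 1.04, adjusted p = 0.876). The probe for NM_001033882 gave nearly the same levels and a change of -0.48 ± 0.60. Both overlapped between the groups. The probe for NM_022177 read 3.38 and 3.44 on the STZ arrays, against 3.11 and 2.32 on the sham arrays, which did not overlap. Its change was 0.47 ± 0.48 (interval -0.77 to 1.71, adjusted p = 0.63), and the mean over the 3 probes was -0.17. Taking NM_022177 for Cxcl12 would make the homeostatic mean -0.54 in place of -1.03. The 3 accessions are records of 1 gene, and no direction could be given for Cxcl12.

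**Figure D3:**
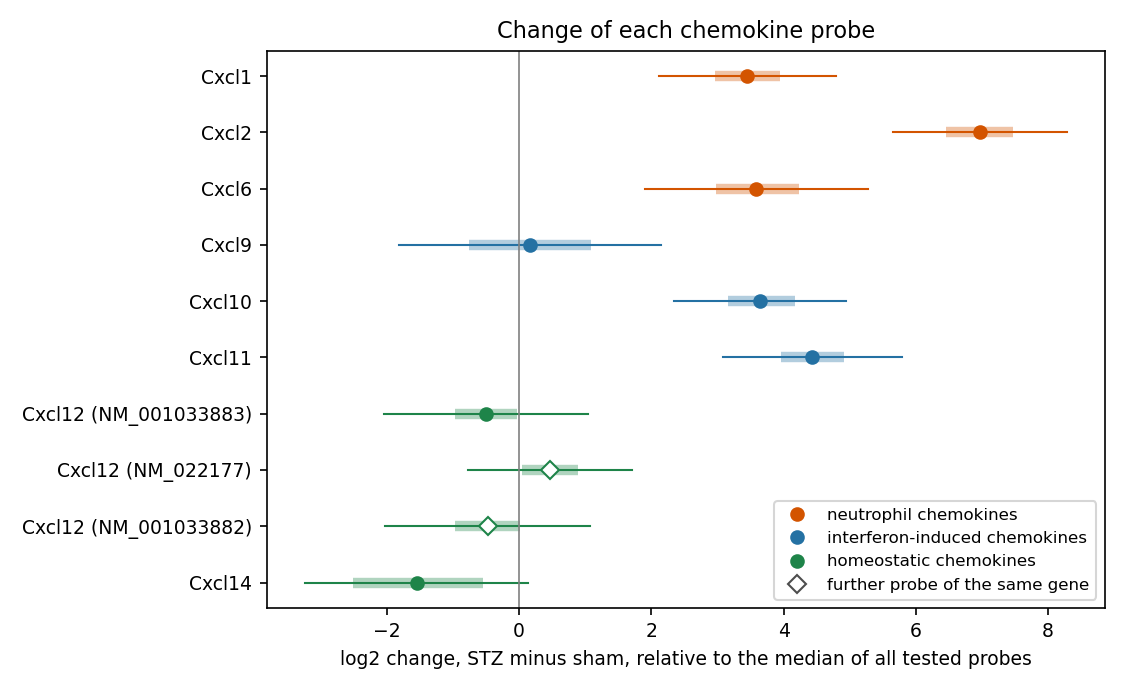
Change of each chemokine probe in log2, STZ minus sham, less the change of the median probe; points are changes, thin lines 95% intervals from limma, and thick bars the range when each of the 4 arrays is left out in turn. The intervals of Cxcl1, Cxcl2, Cxcl6, Cxcl10 and Cxcl11 lie above 0, from 1.90 at the lowest to 8.28 at the highest, and those of Cxcl9, Cxcl14 and all 3 Cxcl12 probes include 0.

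The inducible members lie in clusters on chromosome 14, by the gene order of GRCr8. Cxcl11, Cxcl10 and Cxcl9 follow each other there, flanked by Art3 and Sdad1, whose changes were -0.30 ± 0.50 and 0.24 ± 0.44. Cxcl9 thus differed in its measured change from its immediate neighbour Cxcl10, 0.16 against 3.64. That difference was not tested, and the Cxcl9 probe was dim. Cxcl2, Cxcl1, Cxcl3, the platelet chemokines Pf4 and Ppbp, and Cxcl6 lie in the other cluster. It is flanked by Mthfd2l, with a change of 0.43 ± 0.42, and Rassf6, with -1.18 ± 0.48. The flanking genes of neither cluster had an unadjusted p under 0.05. Cxcl12 lies on chromosome 4 and Cxcl14 on chromosome 17.

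All 5 other CXC chemokines were measured, and all 5 had positive changes, 3 of them at an unadjusted p under 0.05 (median 1.49). Here and in the lists below, such counts stand against 7.30% of all probes higher and 3.52% lower at that p. Cxcl13, the B cell attractant that acts on Cxcr5, had levels of 3.65 and 3.86 on the STZ arrays, against 0.11 and -0.55 on the sham arrays. Its change was 3.75 ± 0.47 (adjusted p = 0.102), and it passed with median-centred arrays (adjusted p = 0.0467). The change of Pf4, platelet factor 4, was 2.17 ± 0.58, and that of the transmembrane chemokine Cxcl16 was 1.49 ± 0.56 (0.93 without STZ array 1). Ppbp, the precursor of platelet basic protein, had a change of 0.50 ± 0.80, with overlapping groups, and of -0.36 without STZ array 2; it lies in the cluster of the neutrophil class.

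Of 8 CXC receptors, 6 were tested (Cxcr1 and Ackr1 were not), of which 3 were higher at an unadjusted p under 0.05, 0 were lower, and the median change was 0.86. That median was 0.51 without STZ array 1 and 1.52 with no filter on dim probes. The higher ones were Cxcr2, Cxcr3 and Cxcr4. Cxcr3, the receptor of the interferon-induced class, had levels of -0.57 and 0.40 on the STZ arrays, against -3.20 and -4.14 on the sham arrays. Its change was 3.36 ± 0.59 (unadjusted p = 0.00179). Cxcr2, the receptor of the neutrophil class, read -1.12 and -2.46 on the STZ arrays, against -4.43 and -3.81 on the sham arrays. Its change was 2.11 ± 0.62 (unadjusted p = 0.0134), 1.28 without STZ array 1, and 1.31 (unadjusted p = 0.0594) under normexp with quantile normalization. The receptor of Cxcl12, Cxcr4, read 3.04 and 2.88 on the STZ arrays, against 1.21 and -0.02 on the sham arrays. Its change was 2.14 ± 0.57 (unadjusted p = 0.00895), so the receptor was higher while its ligand had no settled direction. For Cxcr5, the receptor of Cxcl13, the change was -1.83 ± 1.41. Its sham arrays lay far apart, at -5.04 and -0.76, and without sham array 2 the change was 0.28. Cxcr6 had a change of -0.72 ± 0.50 (unadjusted p = 0.366), with both STZ arrays below both sham arrays. Ackr3 had one of -0.39 ± 0.59 with overlapping groups, and of 0.26 without sham array 1.

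Of 11 genes of the signalling that induces the neutrophil class, including feedback and responding genes, 9 were tested. All 9 had positive changes, 7 of them at an unadjusted p under 0.05 (median 2.89, or 2.81 with the 2 genes dim in sham skin at their bound). Leaving out STZ array 1 lowered this median to 1.60, and leaving out STZ array 2 raised it to 3.93. Among the 7, the interval of Tnf (-0.05 to 3.26) included no change relative to the median probe. Il1b, the secreted interleukin-1 beta, had levels of 5.39 and 5.02 on the STZ arrays, against 1.27 and 0.37 on the sham arrays, a change of 4.16 ± 0.51. Neither Il17a nor Il17f, the cytokines of type 17 T cells, was well above background in sham skin. On the 75th percentile scale, Il17a was at least 18.3-fold and Il17f at least 8.22-fold higher in STZ skin (adjusted p = 0.102 for each). For Il17a this bound is the measured difference itself, which was 15.6-fold relative to the median probe. The bounds hold for this processing only. Under normexp with quantile normalization the measured log2 changes were 1.27 for Il17a and 0.53 for Il17f. Il6, a cytokine of the same response, had a change of 4.69 ± 1.03. Nfkbia, the NF-kappaB inhibitor that NF-kappaB itself induces, had a change of 0.50 ± 0.61 with overlapping groups, and of -0.22 without STZ array 1.

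Of the interferon gamma pathway, 12 of 13 genes were tested, all 12 with positive changes and 6 at an unadjusted p under 0.05 (median 1.18, or 0.75 without sham array 2). Among these 6, the intervals of Irf1 (-0.03 to 2.39), Gbp2 (-0.11 to 3.15) and Jak2 (-0.12 to 2.78) included no change relative to the median probe. Ifng itself was likewise not well above background in sham skin. STZ skin had at least a 5.25-fold higher signal (adjusted p = 0.29), with a change of 0.27 under normexp with quantile normalization. Changes were 2.08 ± 0.42 for the transcription factor Irf8, 1.69 ± 0.45 for the GTPase Gbp5 and 1.18 ± 0.47 for the transcription factor Irf1. For Irf8 it was 1.17 under normexp with quantile normalization. The unadjusted p of Irf1, 0.0302, was 0.0578 with the replicate block and 0.0628 with median-centred arrays. These changes were smaller in log2 than those of Cxcl10 and Cxcl11, with no test of that difference.

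Proteins that cut or hold chemokines split, with an unadjusted p under 0.05 for 3 higher and 1 lower of 7 genes (median 0.91, or 0.32 without STZ array 1 and 0.55 without sham array 2). Mmp9, a gelatinase stored in neutrophil granules that trims neutrophil chemokines in human and mouse, had levels of 3.38 and 2.99 on the STZ arrays, against -4.18 and -5.24 on the sham arrays. Its change was 7.67 ± 0.55 (adjusted p = 0.0873). Mmp8, neutrophil collagenase, had a change of 5.66 ± 1.20; it was well above background in only 2 of the 4 sham readings, and the change was 2.94 under normexp with quantile normalization. Mmp2, which cleaves Cxcl12, had a change of 1.18 ± 0.53 (interval -0.17 to 2.53), and of 0.69 without sham array 2. Its unadjusted p, 0.044, was 0.0767 with the replicate block, 0.0719 with median-centred arrays and 0.0551 with no filter on dim probes. Dpp4, the peptidase that trims the amino terminus of the Cxcr3 ligands and of Cxcl12, was the lower one. It read -1.76 and -1.02 on the STZ arrays, against 0.33 and 0.18 on the sham arrays, a change of -1.87 ± 0.48 (unadjusted p = 0.0182).

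**Figure D4:**
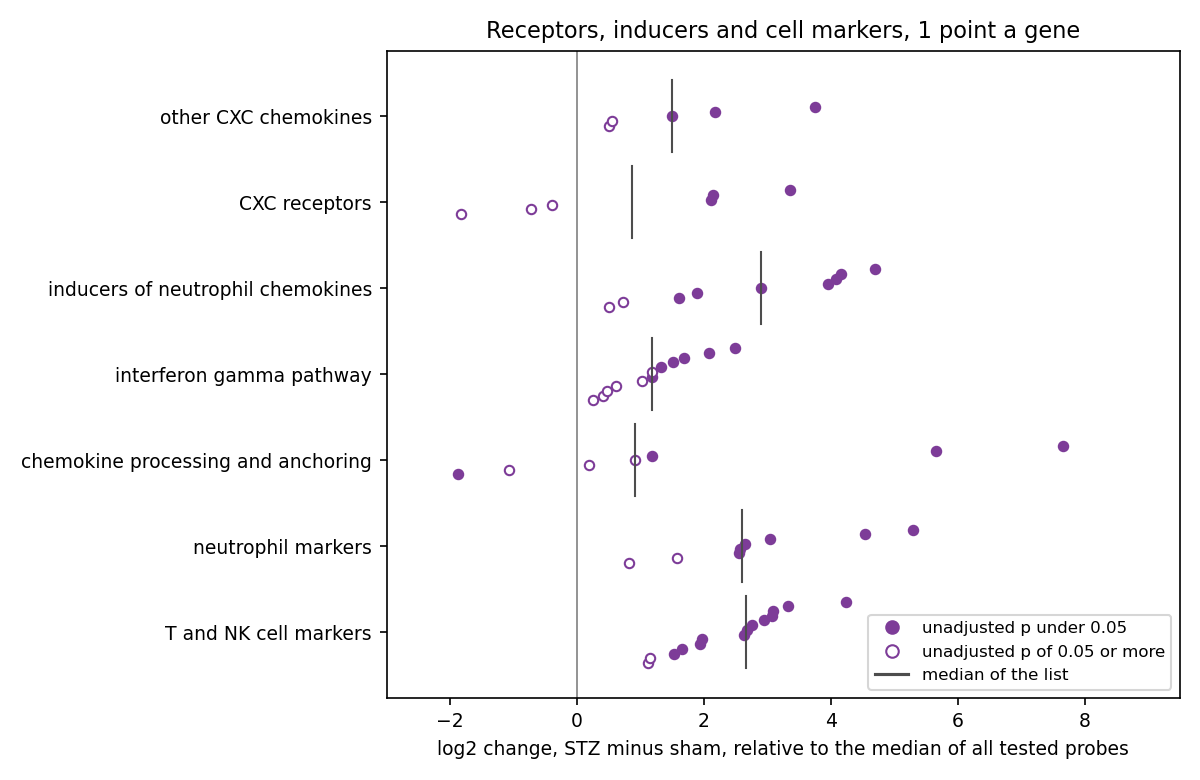
Change of each tested gene in 7 lists, in log2, STZ minus sham, less the change of the median probe. Filled points have an unadjusted p under 0.05, tested before that change was subtracted, and open points do not. The upright lines are list medians. The medians are 1.49 for other CXC chemokines, 0.86 for CXC receptors, 2.89 for inducers, 1.18 for the interferon gamma pathway, 0.91 for processing and anchoring, 2.61 for neutrophil markers and 2.66 for T and NK cell markers.

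Markers of the cells these chemokines attract were higher on the same arrays. Counts at an unadjusted p under 0.05 again stand against 7.30% of all probes higher and 3.52% lower. Of 12 neutrophil markers, 8 were tested (S100a9, Mpo, Elane and Fpr2 were not), all 8 with positive changes and 6 at an unadjusted p under 0.05 (median 2.61). Their mean level was -1.30 and -1.42 on the STZ arrays, against -4.44 and -4.50 on the sham arrays. The calprotectin subunit S100a8, which stressed keratinocytes also make, had a change of 5.30 ± 0.42, and Csf3r, the receptor of granulocyte colony-stimulating factor, one of 4.54 ± 0.85. These were the largest changes of the list. The smallest were 1.57 ± 0.87 for Ngp (unadjusted p = 0.0947) and 0.81 ± 0.83 for Ltf (unadjusted p = 0.264), whose groups overlapped. Fpr1 was not well above background in sham skin. All 14 T and NK cell markers had positive changes, 12 of them at an unadjusted p under 0.05 (median 2.66). Their mean level was -1.07 and -0.21 on the STZ arrays, against -3.04 and -3.58 on the sham arrays. Cd8a, the coreceptor of cytotoxic T cells, had a change of 4.24 ± 0.42, and Cd4, that of helper T cells, one of 1.13 ± 0.64 that was 0.28 without STZ array 1 and 2.01 without STZ array 2. Of 7 macrophage markers, 6 were tested, all 6 positive and 5 at an unadjusted p under 0.05 (median 1.83). Their mean level was 2.40 and 2.20 on the STZ arrays and 0.56 and 0.10 on the sham arrays. Among the 5, the intervals of Mrc1 (-0.08 to 2.15) and Cd14 (-0.12 to 3.87) included no change relative to the median probe. The 3 keratinocyte markers tested split: changes were 0.74 ± 0.65 for Krt14, 1.33 ± 0.72 for Krt1 and -1.89 ± 0.42 (unadjusted p = 0.0109) for Ivl, a protein of the cornified envelope. Their median was 0.74, and ran from -0.09 without sham array 2 to 1.57 without sham array 1, so it had no settled direction. Median changes of the other structural cell lists were 0.79 for fibroblast (0.52 to 1.03 with 1 array left out), 0.45 for endothelium (0.11 to 0.71), -2.01 for adipocyte and -7.37 for hair markers. The part of any cell type in the chemokine changes was not tested.

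The genes whose centred levels lay nearest to an anchor of each class over the 4 arrays were named by their root mean square distance, as a description over 12614 genes. Nearest to Cxcl1 were Trpm2, Clec5a and Plaur, at 0.07, 0.09 and 0.09. Nearest to Cxcl10 were Fgf23 at 0.158, Clec5a at 0.160 and Cxcl1 at 0.167. The sham levels of Fgf23, -8.09 and -8.33, lay below those of Il17a, which was not well above background there. With 2 arrays a group, genes of like change tend to lie near each other by this measure. Changes were 3.77, 3.59 and 3.45 for these genes, against 3.64 for Cxcl10. Cxcl10 was not among the 3 genes nearest to Cxcl1. Nearest to Cxcl12 were Magi3, Dnaaf1 and Angptl4, at 0.04, 0.07 and 0.08.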

How the data were processed

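RNA of rat skin was amplified, labelled with Cy3 and read on 1-colour Agilent arrays, per the labels' protocols. Spots were read with Agilent Feature Extraction, version 11.0.1.1 per the file headers and 11.0.0.1 per the submitters' processing notes. The deposited intensity used is the scanner's processed signal, from which background was already subtracted and which was not scaled between arrays; median spot and background intensities served 1 alternative. The deposited flags (well above background, saturated, outlier) are other values, 0 or 1 per spot. No spot was saturated. The number of arrays limits the precision.

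The 75th percentile of 42136 noncontrol spots was subtracted from log2 intensity in each sample. Spots of a probe were averaged without outlier-flagged ones (99 values with all spots flagged were kept), then rescans were averaged. A probe was tested where at least 4 of 8 samples were well above background with limma 3.58.1 (lmFit, eBayes, two-sided) in R 4.3.3, STZ against sham, without a block. The prior carried 3.01 degrees of freedom beside 2 residual ones; an exact permutation test of 2 against 2 cannot go below p = 0.333. The fit was tested on simulated data in 5 sets. Same-numbered arrays of the groups deviated from the group means with a correlation of -0.201, so the numbers were not taken to pair arrays.

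Accessions were turned into gene names with a RefSeq table of GRCr8 (14264 of 15313 coding accessions matched); the headers name build rn4, and coordinates are printed only for RefSeq promoter windows. A gene with several probes is given by the brightest, the others beside it. Where every sample of a group was dim, "at least" sets the bright group's mean against a floor for each dim array, the lowest signal that counted as above background or, if larger, the measured one. These bounds are on the 75th percentile scale. Named were all members, up to 4 genes of each list by smallest p, and the 3 nearest genes of 1 anchor a class. Ppbp, Cxcr5, Cxcr6, Ackr3, Nfkbia, Cd4, Csf3r, Fpr1, Ngp, Ltf, Krt14, Krt1, Ivl and genes flanking the clusters were chosen after their values were seen. Members and lists were chosen with earlier results of these data known. Alternatives changed the scaling, background correction, filter, flags, probe choice, rescans, block and arrays.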

Additional observations from a re-analysis of the deposited data

How the results depend on the processing

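The 5 chemokines higher at an unadjusted p under 0.05 numbered 5 under each alternative run, and Cxcl1, Cxcl2, Cxcl6, Cxcl10 and Cxcl11 kept their direction in all of them. Reversed were Cxcl9, at -0.10 under quantile normalization, -0.056 under normexp, -0.037 without STZ array 2 and -0.76 to 1.09 over the arrays left out, and Cxcr5, at 0.28 without sham array 2 (-3.95 to 0.28 over the arrays left out). With 1 array left out, signs also turned for Ppbp, Ackr3, Nfkbia and the keratinocyte median, as given above, and for the Cxcl12 probe NM_001033882, at 0.01 without sham array 1. Taking Cxcl12 by NM_022177, chosen after seeing the data, gave 0.47 for Cxcl12 and -0.54 for the homeostatic mean. Counting the 8 samples as separate arrays, which treats rescans as replicates, gave 5236 probes at an adjusted p under 0.05, with 5317 higher, 3319 lower and 1 member lower at an unadjusted p under 0.05. Median-centred arrays gave 125 adjusted calls. Quantile normalization gave 1149 lower probes and a homeostatic mean of -0.67. Normexp, which here used median spot signals, gave 1354 lower probes and class means of 4.10 (neutrophil), 2.03 (interferon-induced) and -0.65 (homeostatic). With no filter on dim probes the interferon-induced mean was 2.60. Leaving out each array in turn left a lone array assumed to vary like the other group. It gave 0 to 49 adjusted calls (49 without STZ array 1), 677 to 5380 higher and 305 to 1094 lower probes, 0 to 1 member lower (Cxcl14 without STZ array 1), 1 to 2 members with STZ below sham, and class means of 4.33 to 5.01, 2.70 to 2.83 and -1.33 to -0.70. The cause of these shifts was not tested. With the replicate block, 0 probes passed the adjusted test, 1568 were higher and 589 lower, and 5 members were higher and 0 lower. Crossing the numbers, an alternative chosen after seeing the data, gave 0 adjusted calls, 2082 higher and 761 lower. Of the 18 named genes of the pathway lists with an unadjusted p under 0.05, Irf1 and Mmp2 lost it with the block and with median-centred arrays. Mmp2 also lost it with no filter on dim probes, and Ifng, Il17f and Cxcr2 lost it under normexp. Calls with 1 array left out are not counted here. A block by slide was not run, since all arrays lay on 1 slide. Low signal limits Cxcl6, Cxcl9 and the cytokines not above background in sham skin.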
